A study of Mus musculus with 4 samples.

Results

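The proteasome is the cylinder-shaped protease that degrades ubiquitin-tagged proteins, and its genes were followed in mouse bone marrow 8 h after lipopolysaccharide (LPS). Members were all genes whose only annotated symbol on the array began with Psma to Psmg and a digit, together with Pomp, the maturation factor. The rule found 51 genes of the 19938 genes measured by a probe set with a single symbol. They comprise 5 interferon-inducible genes (Psmb8, Psmb9, Psmb10, Psme1 and Psme2), 31 constitutive genes of the 20S core and the 19S cap, and 15 others. Of these 15, 8 encode assembly factors and 3 encode other activators or an inhibitor. A further 2 are expressed in single tissues, and the remaining 2 match the symbol rule without being proteasome subunits.

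The LPS group was 2 arrays of bone marrow cells from C57BL/6N mice that had been given 50 µg of LPS, a glycolipid from the outer membrane of Gram-negative bacteria, by a single intraperitoneal injection. The LPS was an equal mixture from E. coli K12 and S. minnesota. The PBS group was 2 arrays from C57BL/6N mice injected with phosphate-buffered saline and sampled at the same 8 h. The labels name no sorting of the cells and no genotype beyond the strain, and do not say whether an array stands for 1 mouse or a pool. The spread between replicates may therefore be partly technical. The sample titles number the LPS arrays 1 and 2 and the PBS arrays 1 and 3.

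In the 20S core, 2 outer rings of alpha subunits form the gate and 2 inner rings of beta subunits hold the proteolytic sites. Interferons lead cells to make Psmb8, Psmb9 and Psmb10, which take the places of the catalytic subunits Psmb5, Psmb6 and Psmb7 in newly built cores, and the resulting immunoproteasome cuts many of the peptides shown on MHC class I molecules. Psme1 and Psme2 encode the alpha and beta subunits of PA28, a ring that opens the core without the need for ubiquitin. Cells of blood origin carry some immunoproteasome even at rest.

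After LPS, 6 of the 51 genes were higher and 0 were lower. The 6 were the 3 inducible catalytic subunits, the 2 PA28 genes and Psma5, a subunit of the alpha ring. The inducible genes had log2 fold changes of 0.64 (Psme1, 1.56-fold) to 1.22 (Psmb10, 2.33-fold), whereas the median log2 fold change of the 31 constitutive genes was 0.13. A gene was called at an adjusted p under 0.05 in limma, a linear model that pools the spread over genes, with Benjamini-Hochberg adjustment over all 19938 genes. By that rule 3.66% of all genes were called, 2.39% as higher and 1.27% as lower. All values are log2 expression values normalised by the authors, so that a difference of 1 is a doubling, and each fold change is LPS minus PBS.

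All 5 inducible genes were higher after LPS. The promoters of 3 of them are shown as examples that differ in the motifs they hold. Each runs 5′ to 3′ on the gene's own strand, from 250 bases before to 50 bases after the first transcribed base, in the RefSeq annotation of GRCm38.p6. Capitals mark every match to 1 of the 5 short motifs named after the sequences.
Psmb9, chr17:34187281-34187580, minus strand: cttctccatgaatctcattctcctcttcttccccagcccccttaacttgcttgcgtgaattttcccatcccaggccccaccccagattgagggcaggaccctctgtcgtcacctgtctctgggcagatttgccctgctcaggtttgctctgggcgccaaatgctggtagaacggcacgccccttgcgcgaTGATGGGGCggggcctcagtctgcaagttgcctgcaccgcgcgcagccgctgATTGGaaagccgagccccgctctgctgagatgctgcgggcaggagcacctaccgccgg
Psmb8, chr17:34197945-34198244, plus strand: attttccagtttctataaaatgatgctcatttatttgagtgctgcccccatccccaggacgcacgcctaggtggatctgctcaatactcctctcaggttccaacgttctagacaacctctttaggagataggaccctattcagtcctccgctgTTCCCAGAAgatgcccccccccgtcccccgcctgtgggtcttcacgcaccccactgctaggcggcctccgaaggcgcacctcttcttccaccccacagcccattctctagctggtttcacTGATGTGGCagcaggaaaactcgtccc
Psme1, chr14:55578244-55578543, plus strand: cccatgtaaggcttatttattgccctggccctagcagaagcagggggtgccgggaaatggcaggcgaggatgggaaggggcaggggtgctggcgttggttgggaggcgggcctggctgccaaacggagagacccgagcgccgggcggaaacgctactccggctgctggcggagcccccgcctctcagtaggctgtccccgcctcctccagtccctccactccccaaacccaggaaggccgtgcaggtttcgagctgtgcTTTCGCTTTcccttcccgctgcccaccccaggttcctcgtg

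Both strands were searched for the core of the interferon-stimulated response element (AAANNGAAA), of the gamma-activated site (TTCNNNGAA), of the kappaB site (GGNNNTTCC), of the antioxidant response element (TGANNNNGC, read by Nfe2l1 and Nfe2l2), and for the CCAAT box (CCAAT). Counting the first transcribed base as 0, Psme1 held the interferon-stimulated response element core on the reverse strand at 9 to 17. Psmb8 held the gamma-activated site core at -97 to -89 and the antioxidant response element core at 23 to 31. Psmb9 held the antioxidant response element core at -60 to -52 and a CCAAT box on the reverse strand at -8 to -4. Of the inducible genes not shown, Psme2 held only the antioxidant response element core and Psmb10 held no match to any of these motifs. The Psmb9 window overlaps by 275 bases with that of Tap1, the peptide transporter gene that is read from the other strand.

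Promoter windows were matched for 43 of the 51 members, among them all 5 inducible genes with 6 windows and 25 of the 31 constitutive genes with 27 windows. The interferon-stimulated response element core stood in 1 of the 6 inducible windows and in 3 of the 27 constitutive windows, against 10.6% of all 32851 windows in the table. For the gamma-activated site core the counts were 1 of 6 and 1 of 27, against 8.3% of all windows. The kappaB core was in 0 of 6 and 12 of 27, against 18.5%. These letters thus stood in a larger share of the constitutive windows than of the whole table, which was not tested. The antioxidant response element core was in 4 of 6 and 15 of 27, against 41.3%, and the CCAAT box in 1 of 6 and 10 of 27, against 37.4%. Both Psme2 windows hold the same antioxidant response element core, which is thus counted more than once. By gene, that core was in 3 of 5 inducible and 14 of 25 constitutive genes, against 12174 of all 27025 genes. These matches describe the letters in a window of 300 bases and do not mark bound sites, and a window without a match says nothing about the factor.

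Among the inducible catalytic subunits, Psmb10, the inducible trypsin-like subunit that replaces Psmb7, stood furthest apart. Its log2 value was 11.00 and 11.07 on LPS arrays 1 and 2, against 9.79 and 9.84 on PBS arrays 1 and 3. Both LPS arrays lay more than 1 log2 unit above both PBS arrays, and the replicates of each group nearly coincided. The means were 11.03 ± 0.05 in LPS marrow and 9.81 ± 0.03 in PBS marrow (SD, n = 2 each). The fold change was 2.33 (log2 1.22, SE 0.0885, 95% interval 1.02 to 1.43, adjusted p = 0.000247).

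Psmb9, which replaces Psmb6, had log2 values of 10.96 and 11.02 on the LPS arrays and 10.11 and 10.05 on the PBS arrays. The groups did not overlap, with means of 10.99 ± 0.04 in LPS marrow and 10.08 ± 0.04 in PBS marrow (SD, n = 2 each). LPS marrow was 1.88-fold higher (log2 0.91, SE 0.0885, 95% interval 0.70 to 1.12, adjusted p = 0.00127).

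Psmb8, the inducible chymotrypsin-like subunit that replaces Psmb5, had the widest spread of the 5 inducible genes. Its values were 10.48 and 10.70 on the LPS arrays, against 10.01 and 9.73 on the PBS arrays. The replicates of each group differed visibly, yet the groups did not overlap. The means were 10.59 ± 0.16 in LPS marrow and 9.87 ± 0.20 in PBS marrow (SD, n = 2 each), a 1.64-fold rise (log2 0.72, SE 0.125, 95% interval 0.42 to 1.01, adjusted p = 0.0230). The call was lost without LPS replicate 2 (log2 0.61, adjusted p = 0.0616) and when all 35556 probe sets were fitted together (adjusted p = 0.124).

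**Figure D1:**
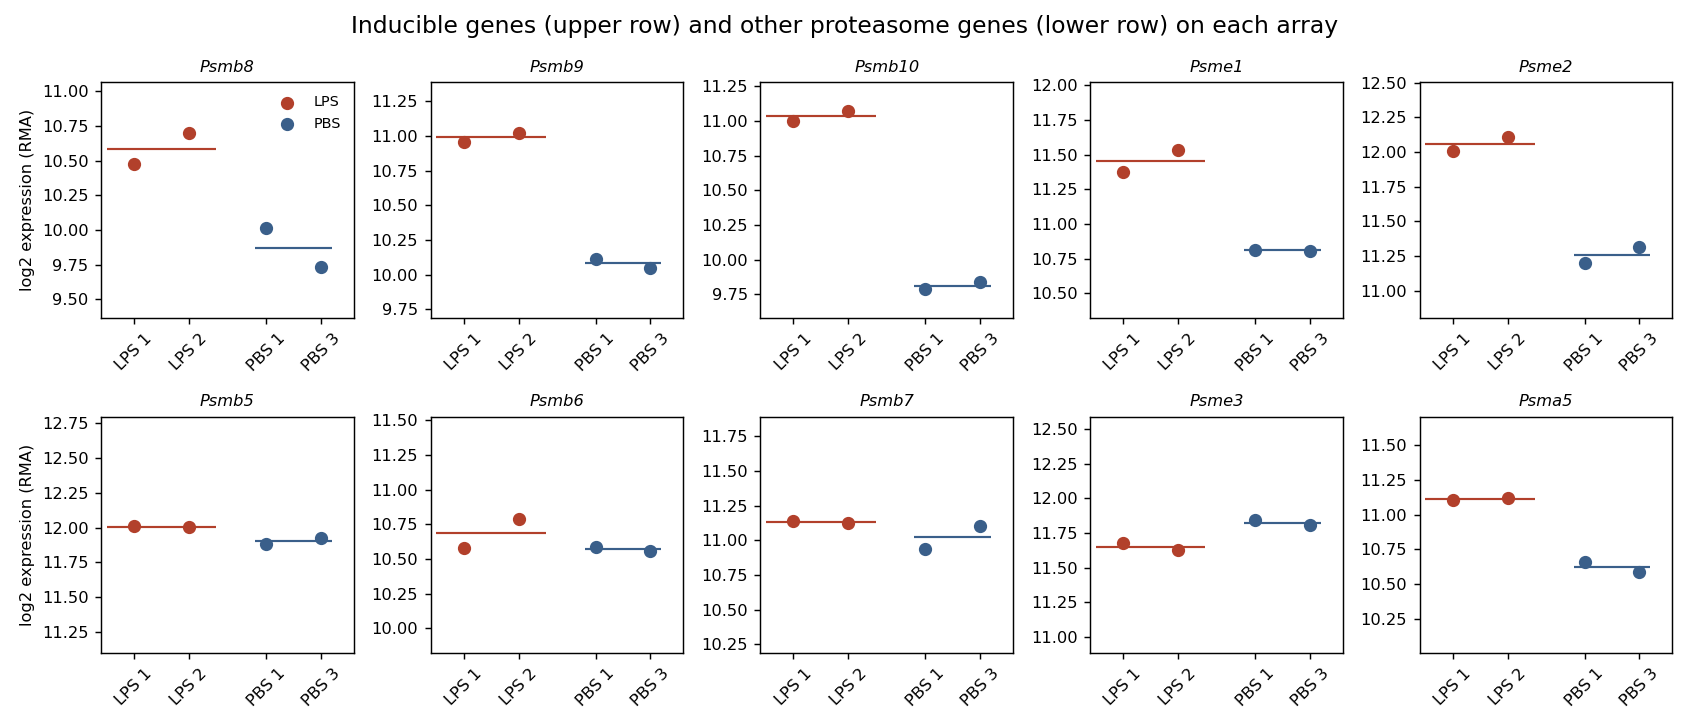
Log2 expression value of 10 proteasome genes on each array, with LPS at the left and PBS at the right of each panel. Points are single arrays, lines are group means, and every panel spans the same log2 range. In the upper row (Psmb8, Psmb9, Psmb10, Psme1, Psme2) the groups stand apart, as for Psmb10 at 11.00 and 11.07 against 9.79 and 9.84. In the lower row the constitutive counterparts Psmb5, Psmb6 and Psmb7 and the activator Psme3 differ less, and Psma5 lies between (11.10 and 11.12 against 10.66 and 10.58).

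Both PA28 genes were higher in LPS marrow. Psme2, the beta subunit, had log2 values of 12.01 and 12.11 on the LPS arrays, against 11.20 and 11.31 on the PBS arrays. Group means were 12.06 ± 0.07 in LPS marrow and 11.26 ± 0.08 in PBS marrow (SD, n = 2 each). The 1.75-fold rise (log2 0.80, SE 0.0942, 95% interval 0.58 to 1.02, adjusted p = 0.00319) exceeded the gap between replicates of either group. Psme2b is a near-identical copy of Psme2, so the probes read here may bind RNA of both, and the share of each was not tested.

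Psme1, the alpha subunit, had 11.37 and 11.53 on the LPS arrays and 10.81 on each of the PBS arrays. The means were 11.45 ± 0.11 in LPS marrow and 10.81 ± 0.003 in PBS marrow (SD, n = 2 each). LPS marrow was 1.56-fold higher (log2 0.64, SE 0.0950, 95% interval 0.42 to 0.86, adjusted p = 0.0104), with no overlap. The call was lost when all probe sets were fitted together (adjusted p = 0.0648).

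Each inducible catalytic subunit was set against the constitutive subunit it replaces, as the difference of the 2 log2 values within an array. The size of such a difference also depends on how bright each probe set is, and only its change between the groups is read. Psmb10 minus Psmb7 was -0.14 and -0.06 on the LPS arrays, against -1.15 and -1.27 on the PBS arrays. The mean difference was -0.10 ± 0.06 in LPS marrow and -1.21 ± 0.08 in PBS marrow (SD, n = 2 each), a shift of 1.11, or 2.16-fold, toward the inducible gene.

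Psmb9 minus Psmb6 was 0.38 and 0.24 on the LPS arrays and -0.48 and -0.50 on the PBS arrays. The mean was 0.31 ± 0.10 in LPS marrow and -0.49 ± 0.02 in PBS marrow (SD, n = 2 each), a shift of 0.80, or 1.74-fold. Psmb8 minus Psmb5 was -1.53 and -1.30 on the LPS arrays, against -1.87 and -2.20 on the PBS arrays. Its mean was -1.42 ± 0.16 in LPS marrow and -2.03 ± 0.23 in PBS marrow (SD, n = 2 each), a shift of 0.62, or 1.53-fold. In all 3 pairs the LPS arrays both exceeded the PBS arrays, which gave p = 0.333 in a two-sided exact permutation test, the smallest p that 2 arrays against 2 allow.

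The constitutive catalytic subunits themselves did not pass the test. Psmb5 had 12.01 and 12.00 on the LPS arrays, against 11.88 and 11.93 on the PBS arrays (log2 fold change 0.10, 95% interval -0.10 to 0.30). Psmb6 had 10.58 and 10.79 on the LPS arrays and 10.59 and 10.56 on the PBS arrays (0.11, interval -0.12 to 0.35), and here the groups overlapped. Psmb7 had 11.14 and 11.13 on the LPS arrays and 10.94 and 11.11 on the PBS arrays (0.11, interval -0.11 to 0.33). The upper bounds of these 3 intervals lie below the lower bounds for their inducible partners, which are 0.42 for Psmb8, 0.70 for Psmb9 and 1.02 for Psmb10.

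The other constitutive beta subunits, which have no proteolytic site, ranged from Psmb4 (0.23, adjusted p = 0.319) down to Psmb1 (-0.06, adjusted p = 0.855). Over the 7 constitutive beta genes 0 were called, 6 had a positive log2 fold change, and the median was 0.11. In 3 of the 7 the LPS arrays both exceeded the PBS arrays, and that order held for 20.4% of all genes.

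Of the 7 alpha ring genes, which form the outer rings and the gate, Psma5 was called. Its log2 value was 11.10 and 11.12 on the LPS arrays, against 10.66 and 10.58 on the PBS arrays. The means were 11.11 ± 0.01 in LPS marrow and 10.62 ± 0.05 in PBS marrow (SD, n = 2 each). LPS marrow was 1.40-fold higher (log2 0.49, SE 0.0880, 95% interval 0.29 to 0.69, adjusted p = 0.0257). This estimate was below that of any inducible gene, but its interval overlaps those of Psme1 and Psmb8 (each from 0.42) and Psme2 (from 0.58). A second probe set named for Psma5 differed by 0.51. The call was lost without LPS replicate 1 (adjusted p = 0.0825), without LPS replicate 2 (adjusted p = 0.106) and with all probe sets fitted together (adjusted p = 0.100).

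The other 6 alpha genes were not called, with log2 fold changes between 0.10 (Psma1) and 0.32 (Psma3). Psma3 read 11.42 and 11.37 on the LPS arrays, against 10.92 and 11.23 on the PBS arrays (adjusted p = 0.238). That difference was called without PBS replicate 3 (log2 0.48, adjusted p = 0.0368) and was 0.16 without PBS replicate 1, the lower PBS array. All 7 alpha genes had a positive log2 fold change, and the median was 0.18.

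The 19S cap recognises ubiquitin chains, unfolds the substrate and feeds it into the core. Its 6 ATPases, the motor ring, had 0 calls and a median log2 fold change of 0.13, from Psmc5 (0.26, adjusted p = 0.199) to Psmc3 (-0.02). Its 11 non-ATPase subunits also had 0 calls, with a median of 0.12. They ran from the lid subunit Psmd12 (0.33, adjusted p = 0.203) to the lid subunit Psmd13 (-0.03). Psmd4, a receptor for ubiquitin chains, stood at 0.13, and Psmd14, the subunit that cuts ubiquitin off the substrate, at 0.04. The scaffold subunits Psmd1 and Psmd2 stood at 0.11 and 0.12.

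**Figure D2:**
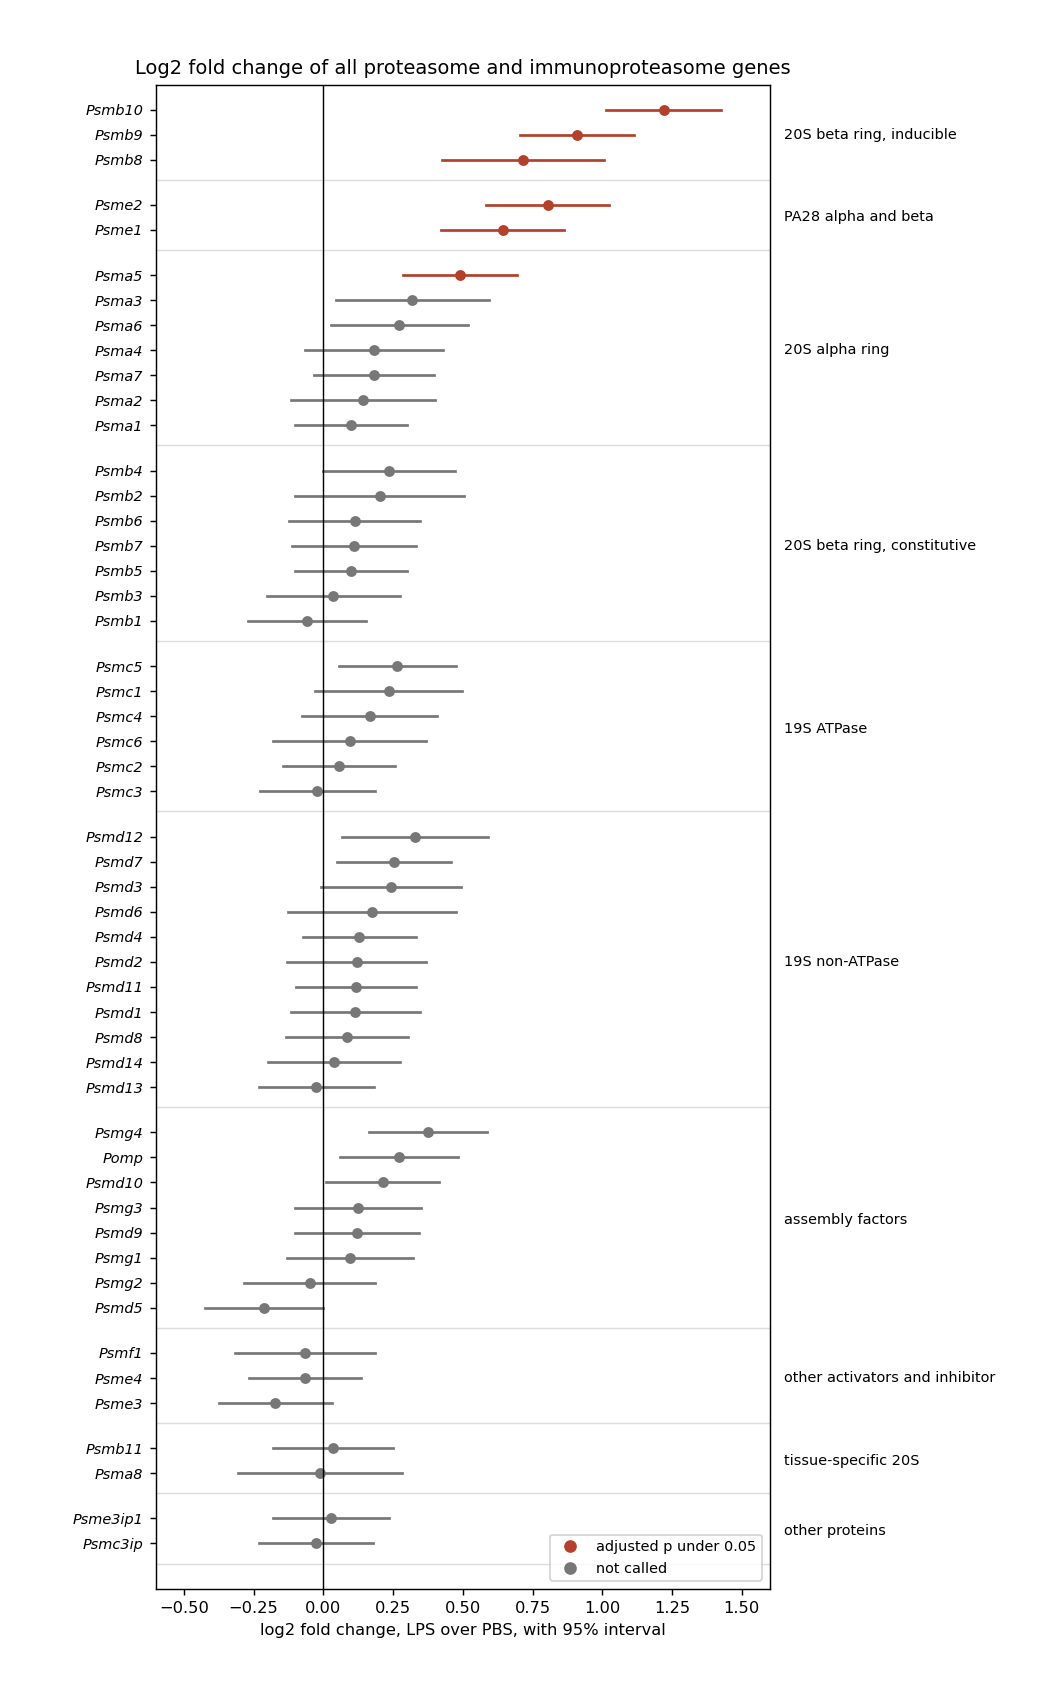
Log2 fold change, LPS minus PBS, of all 51 members by role, with the 95% interval of the limma fit. Red marks the 6 genes with an adjusted p under 0.05, which are the 5 inducible genes (0.64 to 1.22) and Psma5 (0.49). The constitutive classes have medians of 0.11 to 0.18.

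Over the 31 constitutive genes, small positive values were common. The log2 fold change was positive for 28 of 31 (90.3%), against 47.5% of all genes, and the median of all genes was -0.01. Psma5 was the 1 gene of 31 called higher, a share near the 2.39% of all genes, and 6 of the 31 (19.4%) had an unadjusted p under 0.05, against 15.8% of all genes. For 19 of the 31 genes the LPS arrays both exceeded the PBS arrays, and for 0 both fell short of them. Over all genes 20.4% had the first order and 24.5% the second.

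The arrays did not share this small difference evenly. As the deviation from each gene's own mean, the median over the 31 genes was 0.10 and 0.05 on LPS arrays 1 and 2, against -0.14 and -0.02 on PBS arrays 1 and 3. PBS replicate 1 was the lowest of the 4 arrays for 20 of the 31 genes, against 23.7% of all genes. It lay below PBS replicate 3 for 21 of the 31, against 46% of all genes. The median log2 fold change of the 31 was 0.08 without PBS replicate 1 and 0.21 without PBS replicate 3. Without PBS replicate 3 the class medians were 0.30 for the alpha ring, 0.14 for the beta ring, 0.26 for the ATPases and 0.13 for the other cap subunits, and without PBS replicate 1 they were 0.12, 0.05, 0.07 and 0.10. For the inducible genes the same median deviation was 0.35 and 0.47 on the LPS arrays, against -0.42 and -0.48 on the PBS arrays, and both PBS arrays were alike. Over all genes it lay between -0.01 and 0.01 on each array.

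**Figure D3:**
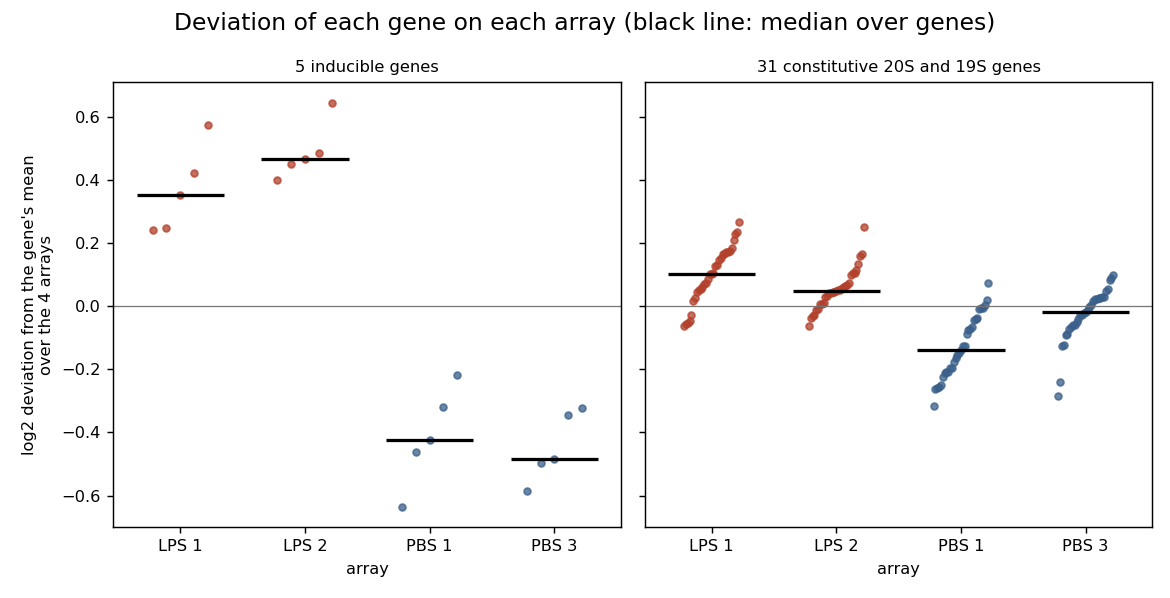
Deviation of each gene's log2 value from its own mean over the 4 arrays, for the 5 inducible and the 31 constitutive genes, with the LPS arrays left of the PBS arrays. Each point is a gene, sorted by value within an array, and each black line is the median. The inducible median is 0.35 and 0.47 on the LPS arrays, against -0.42 and -0.48 on the PBS arrays. The constitutive median is 0.10 and 0.05, against -0.14 and -0.02.

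Among the 8 assembly factors, which build the core and the cap and then leave, 0 were called and the median log2 fold change was 0.12. An unadjusted limma p under 0.05 was found for 4 of the 8 (50%), against 15.8% of all genes. These were Psmg4, Pomp and Psmd10, with positive log2 fold changes, and Psmd5, with a negative one. Psmg4, which with Psmg3 helps to build the alpha ring, had the highest value. It read 9.71 and 9.77 on the LPS arrays, against 9.41 and 9.31 on the PBS arrays (log2 fold change 0.38, adjusted p = 0.0759). Pomp, which is needed to finish the core and is used up in doing so, stood at 0.27 (adjusted p = 0.192). The arrays of Psmg4 and Pomp did not overlap between the groups, but neither passed the test. Both LPS arrays exceeded both PBS arrays for 5 of the 8 assembly factors, an order that held for 20.4% of all genes.

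The lowest assembly factor was Psmd5, a chaperone of the cap's ATPase ring. Its log2 values were 10.08 and 10.00 on the LPS arrays and 10.21 and 10.29 on the PBS arrays (log2 fold change -0.21, adjusted p = 0.312). The related chaperones Psmd9 and Psmd10 stood at 0.12 and 0.21.

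The activators and the inhibitor outside the PA28 alpha and beta pair all had negative log2 fold changes, and 0 of these 3 genes passed the test. Psme3, the nuclear PA28 gamma subunit, had 11.68 and 11.63 on the LPS arrays, against 11.84 and 11.81 on the PBS arrays (log2 fold change -0.17, 95% interval -0.37 to 0.03, adjusted p = 0.402). Psme4, the PA200 activator, and Psmf1, the inhibitor PI31, stood at -0.07 each. Both LPS arrays of Psme3 lay below both PBS arrays, an order that held for 24.5% of all genes. The interval of Psme3 does not reach the lower bound of 0.42 for Psme1.

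The core subunits of single tissues had low values on all arrays. Psma8, the testis form of an alpha subunit, had 6.49 and 6.35 on the LPS arrays and 6.26 and 6.60 on the PBS arrays. Psmb11, the beta subunit of thymic cortical epithelium, had 6.70 and 6.75 on the LPS arrays, against 6.75 and 6.63 on the PBS arrays. These values lay close to the lower quartile of all genes, which was 6.66 to 6.72 over the 4 arrays. Their log2 fold changes were -0.01 and 0.04. Psmc3ip, a meiotic recombination protein, and Psme3ip1, a partner of Psme3, match the symbol rule without being proteasome subunits, and stood at -0.03 and 0.03.

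Genes that act beside the proteasome were described by lists chosen with earlier results of these data known. Over all genes 2.39% were called higher and 1.27% lower. Of the 10 proteasome-associated proteins measured, 0 were called and the median log2 fold change was 0.05. The highest was Usp14, which trims ubiquitin chains at the cap (0.35, adjusted p = 0.163), and the lowest was Ubqln4, a shuttle for ubiquitinated proteins (-0.10). The 5 measured genes of proteasome gene transcription had a median of 0.00 and 0 calls. Nfe2l1, the factor that raises proteasome genes when degradation is blocked, had 10.15 and 10.16 on the LPS arrays, against 9.83 and 9.71 on the PBS arrays (log2 fold change 0.39, adjusted p = 0.0699). It was called after cyclic loess normalisation (adjusted p = 0.0455). Ngly1, which processes Nfe2l1, was the lowest at -0.18.

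Of the ubiquitin-like modifier genes induced by interferon, 4 of 5 were called higher, against 2.39% of all genes. Their median log2 fold change was 1.62. Ubd, a ubiquitin-like protein that delivers substrates directly to the proteasome, had 8.65 and 8.97 on the LPS arrays, against 6.28 and 6.07 on the PBS arrays. These values differed by 2.63 on the log2 scale (adjusted p = 4.32e-05). The PBS values lay below the lower quartile of all genes and cannot be told from background, so that the size of the change is not known. The enzymes of the ISG15 pathway differed in size. The ISG15 protease Usp18 was 4.55-fold higher (adjusted p = 1.93e-05), the ligase Herc6 3.07-fold (adjusted p = 5.71e-05) and the activating enzyme Uba7 1.88-fold (adjusted p = 0.00349). The conjugating enzyme Ube2l6 had a log2 fold change of 0.22 and was not called (adjusted p = 0.285).

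The 10 class I peptide supply genes carry, trim and load the peptides that the proteasome makes. Of these, 5 were higher, against 2.39% of all genes, and 0 were lower, with a median log2 fold change of 0.43. Tap1, which encodes a chain of the peptide transporter, had 11.64 and 11.75 on the LPS arrays, against 10.75 and 10.44 on the PBS arrays (log2 1.10, SE 0.120, adjusted p = 0.00221). The loading factor Tapbp differed by 0.97 (adjusted p = 0.00255) and the other transporter chain, Tap2, by 0.70 (adjusted p = 0.0360). The peptidases Lap3 of the cytosol (0.69, adjusted p = 0.0301) and Erap1 of the endoplasmic reticulum (0.65, adjusted p = 0.00944) were also called. The light chain B2m stood at 0.18, and the chaperones Calr, Canx and Pdia3 and the peptidase Npepps stood between 0.04 and 0.21, with 0 calls among these 5.

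Among 10 interferon factors, 4 were higher, against 2.39% of all genes, 0 were lower, and the median log2 fold change was 0.18. Stat2 was 2.52-fold higher (log2 1.33, adjusted p = 0.000430) and its partner Irf9 1.48-fold (log2 0.56, adjusted p = 0.0167). Irf1, a factor known to act on Psmb9, differed by 1.30 (adjusted p = 0.000427), and Nlrc5, the class I transactivator, by 0.68 (adjusted p = 0.0147). The interferon receptor genes Ifngr1, Ifngr2, Ifnar1 and Ifnar2 stood between -0.18 and 0.20 and were not called. With the mean of all probe sets of a gene, Irf1 differed by 0.71 and Nlrc5 by 1.32, both still called. Tap2, Irf9 and Nlrc5 were not called without LPS replicate 2 (adjusted p = 0.0687, 0.0807 and 0.0533), nor Lap3 without LPS replicate 1 (0.0779), and Tap2, Lap3, Erap1, Irf9 and Nlrc5 were not called with all probe sets fitted together (0.0614 to 0.161).

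**Figure D4:**
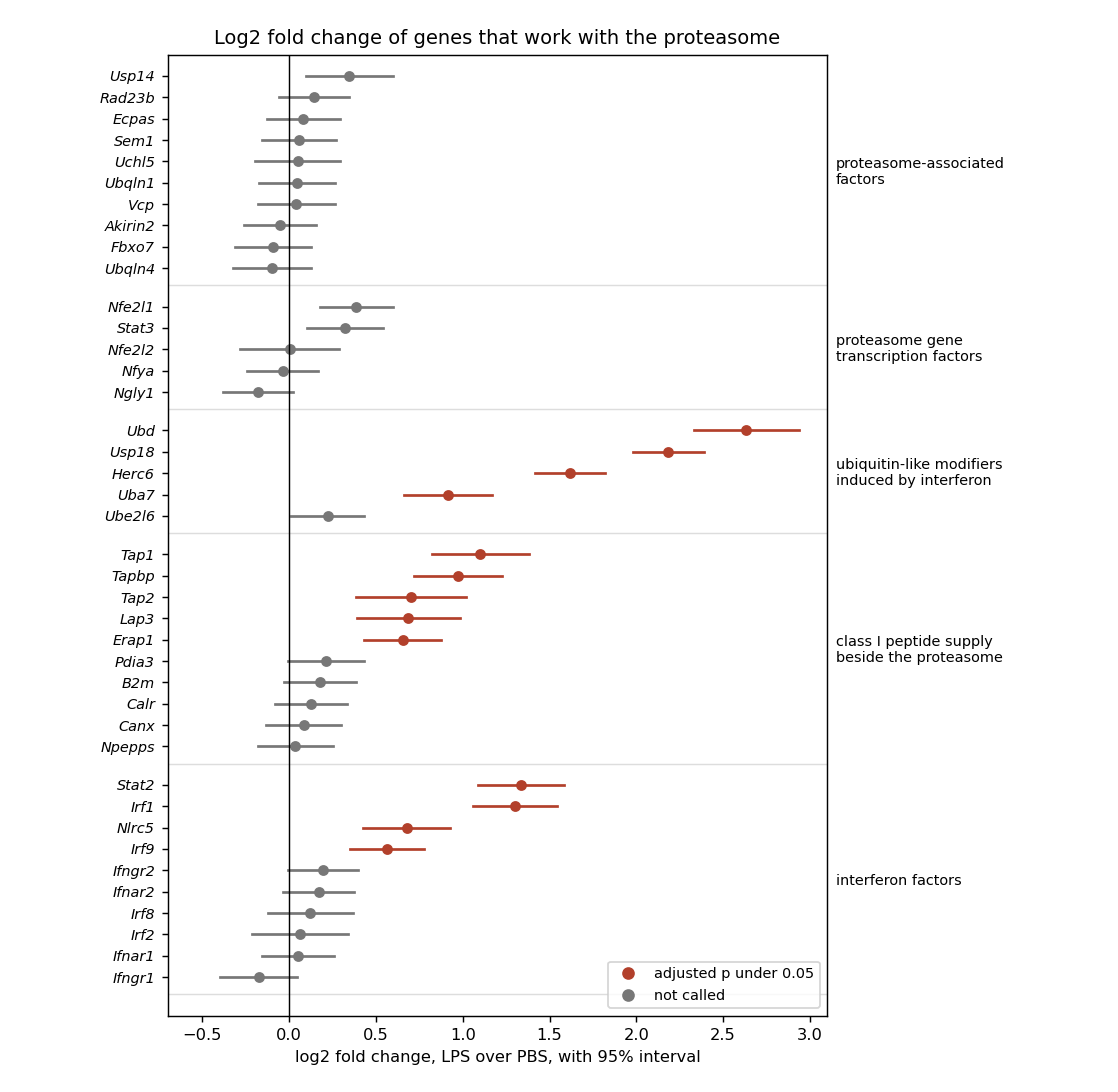
Log2 fold change, LPS minus PBS, of the genes listed beside the proteasome, by list, with the 95% interval of the limma fit. Red marks an adjusted p under 0.05. Of the modifier genes 4 of 5 are red, Ubd with a PBS level that cannot be told from background, 5 of 10 class I peptide supply genes and 4 of 10 interferon factors are red, and none of the proteasome-associated proteins or proteasome gene transcription factors is.

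Several inducible members lie side by side in the genome, and the 3 nearest measured protein-coding genes on each side were read off after the members' values had been seen. On chromosome 17 Psmb9, Tap1, Psmb8 and Tap2 follow one another inside the class II region of the MHC, and all 4 were higher. The class II genes around them did not share this. H2-Ob was lower, with 9.91 and 10.26 on the LPS arrays, against 10.76 and 10.90 on the PBS arrays (log2 fold change -0.74, adjusted p = 0.0231). H2-Oa and H2-DMa stood at -0.22 each and H2-Ab1 at -0.29, none of them called. H2-Ob was not called without LPS replicate 1 (adjusted p = 0.0501) or with all probe sets fitted together (0.125).

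On chromosome 14 Psme1 and Psme2 are separated by Emc9, which stood at -0.08. On the far side of Psme2 lie Rnf31, a ubiquitin ligase subunit (0.46, adjusted p = 0.108), and Irf9 (0.56, called). Before Psme1, the genes Pck2, Dcaf11 and Fitm1 stood between -0.05 and 0.06. Rnf31 was called without PBS replicate 1 (0.63, adjusted p = 0.00979).

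On chromosome 8 the gene before Psmb10 is Ctrl, which encodes a pancreatic protease. Ctrl had 8.03 and 8.18 on the LPS arrays, against 7.57 and 7.63 on the PBS arrays (log2 fold change 0.50, SE 0.0957, adjusted p = 0.0319). It was not called without LPS replicate 2 (adjusted p = 0.169), without PBS replicate 1 (0.0551) or with all probe sets fitted together (0.126). The genes after Psmb10, Lcat, Slc12a4 and Dpep3, stood between 0.12 and 0.24 and were not called.

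**Figure D5:**
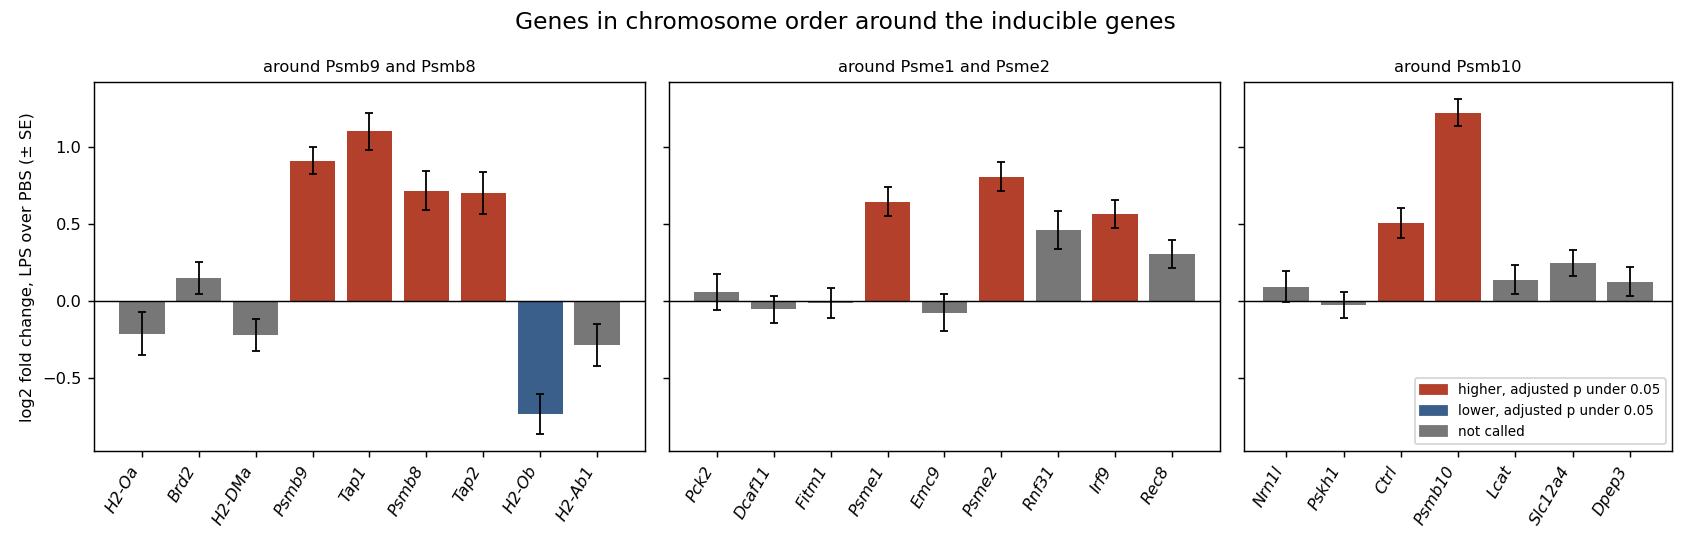
Log2 fold change, LPS minus PBS, with its SE, of the measured protein-coding genes around the inducible members, in their order along chromosomes 17, 14 and 8. Red bars passed the test as higher, blue bars as lower, and grey bars did not pass. Psmb9, Tap1, Psmb8 and Tap2 stand between 0.70 and 1.10, while H2-Ob beside them is at -0.74, and Emc9 between Psme1 and Psme2 is at -0.08.

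Whole marrow holds many cell types, and in such bulk samples fewer cells of a type and less RNA per cell cannot be told apart. Over all genes 2.39% were called higher and 1.27% lower. The marker lists, all chosen with earlier results known, differed between the groups as follows. The mean log2 value of 8 neutrophil genes was 12.66 and 12.49 on the LPS arrays, against 12.96 and 12.88 on the PBS arrays. All 8 had a negative log2 fold change, and Ly6g was called (-1.14). The mean of 5 mature B cell genes was 9.91 and 10.18 in LPS marrow, against 10.51 and 10.64 in PBS marrow, with Fcer2a (-1.61) and Cr2 (-0.75) lower. The other 3, Ms4a1 (-0.01), Cd79b (-0.13) and Cd79a (-0.15), overlapped between the groups and were not called.

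The mean of 6 monocyte and macrophage genes was 10.28 and 10.21 on the LPS arrays, against 9.91 and 9.98 on the PBS arrays, with Fcgr1 (1.57) and Adgre1 (0.56) higher. The other 4 were not called (Csf1r 0.11, Cd68 -0.03, Ccr2 -0.09 and Cx3cr1 -0.32), and the median log2 fold change of the list was 0.04. The T cell mean was 8.36 and 8.20 in LPS marrow, against 8.50 and 8.48 in PBS marrow, with Cd8b1 lower among 7 genes. The uncalled T cell genes stood between -0.42 (Cd3g) and 0.05 (Cd8a). The natural killer mean was 7.61 and 7.47, against 7.69 and 7.84, with Prf1 higher and Klrd1 and Klra8 lower among 6. The uncalled natural killer genes were Klrb1c (-0.19), Ncr1 (-0.15) and Eomes (0.23). On the LPS arrays Klra8 (6.29 and 6.30) lay below the lower quartile of all genes, so that the size of its change is not known. The dendritic cell mean was 8.32 and 8.31, against 8.49 and 8.52, with Bst2 higher and Cd209a lower among 7. These differences, in both directions, stand beside those of the proteasome genes. With 1 array left out some of these calls were lost, for Adgre1 without LPS replicate 1 or PBS replicate 1 (adjusted p = 0.0912 and 0.0550), for Prf1 without LPS replicate 1, LPS replicate 2 or PBS replicate 3 (0.106, 0.0822 and 0.0512) and for Cd8b1 without LPS replicate 2 or PBS replicate 3 (0.181 and 0.0682). With all probe sets fitted together Ly6g, Cr2, Klra8, Adgre1, Prf1, Cd8b1 and Lepr were not called (0.0739 to 0.157).

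Of 4 erythroid and 6 plasma cell genes 0 were called, and of 7 endothelial and stromal genes Lepr was lower, but not without LPS replicate 1 (adjusted p = 0.0616). The erythroid mean was 11.34 and 11.40 on the LPS arrays, against 11.66 and 11.49 on the PBS arrays. The plasma cell mean was 8.80 and 8.96, against 8.80 and 8.86, and the stromal mean was 10.48 and 10.47 on the LPS arrays, against 10.26 and 10.51 on the PBS arrays. Among the 7 endothelial and stromal genes, Col1a1 had the widest gap between the PBS arrays, at 11.99 and 13.33 on PBS arrays 1 and 3. The neutrophil and erythroid lists had means well above the array medians of 8.01 to 8.03. The part of these cell types in the changes of the proteasome genes was not tested.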

How the data were processed

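RNA of bone marrow cells was measured on 4 Affymetrix Mouse Gene 1.0 ST arrays, 2 LPS and 2 PBS, grouped by the labels. The authors deposited 1 log2 value for each probe set, made with RMA (background correction, quantile normalization and summary per probe set), per the submitters' processing notes. Neither RMA's version nor its annotation of probes is given in the sources used here. That the scale is log2 was taken from the values themselves, which ran from 2.76 to 14.52.

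Of 35556 probe sets, 21789 had 1 gene symbol in the platform annotation, 1621 had several and 12146 had none here. The brightest single-symbol probe set, by its mean over the 4 arrays, stood for each of 19938 genes, with no filter on low values. LPS and PBS were compared in R 4.3.3 by limma 3.58.1 (lmFit, then eBayes, two-sided, no covariate, Benjamini-Hochberg over all genes), with 2 residual and 5.59 prior degrees of freedom. Intervals are 95% intervals of that fit. The number of arrays limits the precision.

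Every member was named or counted in its role class, with values for the inducible genes, each gene that passed and the ends of each class. Of the gene lists, those that passed were named, and otherwise the range. The members, lists and tests were chosen with earlier results of these data known. List genes with only several-symbol probe sets or no listed probe set, such as Isg15 and the ubiquitin genes, were not analysed here. Promoters came from RefSeq (GRCm38.p6). Protein sequences were not used here, so the planned comparison of protein identity was not made. Alternatives covered the probe sets entered, the normalisation, the moderation, the threshold and each array left out. Figures were drawn with matplotlib 3.10.9 in Python 3.11.15.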

Additional observations from a re-analysis of the deposited data

Results flagged for a closer look

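A probe set outside the comparisons, because it is named for both Psme2b and Psme2, also stood higher on the LPS arrays. Its log2 value was 11.27 and 11.33 on the LPS arrays, against 10.35 and 10.50 on the PBS arrays, a difference of 0.869 with no overlap (11.30 ± 0.04 in LPS marrow and 10.43 ± 0.10 in PBS marrow, SD, n = 2 each). The probe set that stood for Psme2 differed by 0.80.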

How the results depend on the processing

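Over 13 alternatives, 4 of which left out 1 array, the 51 members gave 662 values, of which 0 changed sign in a called gene, 15 lost the call and 1 gained it (Psma3 without PBS replicate 3). Psmb10, Psmb9 and Psme2 lost it only in a linear model without moderation, in which 0 genes were called either way (2185 genes, 14 members and 4 of the 5 inducible genes had an unadjusted p under 0.05), so 0 members, 0 inducible and 0 constitutive genes passed. With all probe sets fitted together 3 members were called, 3 of them inducible and 0 constitutive, and 63 genes were lower. At an adjusted p under 0.01, 286 genes were higher and 58 lower, with 3 members, 3 inducible and 0 constitutive genes among the higher. The model without moderation has only the 2 residual degrees of freedom, without the 5.59 prior ones. The other settings bring a larger number of probe sets or a stricter threshold. Any further cause was not tested. With 1 array left out, 127 to 423 genes were lower, 4 to 7 members, 4 to 5 inducible and 0 to 2 constitutive genes were higher, the median log2 fold change was 0.0778 to 0.21 over the constitutive genes and 0.0778 to 0.18 over all members. The lone array of a group is then assumed to vary like the other group. The pair shifts without 1 array were 1.05 to 1.17 for Psmb10 and Psmb7, 0.73 to 0.87 for Psmb9 and Psmb6, and 0.45 to 0.78 for Psmb8 and Psmb5. Adding the list genes and neighbours to these alternatives was chosen after seeing the data. No paired analysis was possible because the groups share only replicate number 1. No background was measured for single probe sets, so values near the lower quartile cannot be told from background.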

Other observations

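A few members had several probe sets with their single symbol. The log2 fold changes, LPS minus PBS, of the 3 probe sets of Psma3 were 0.28, 0.33 and 0.32. The pairs of probe sets of Psma5 (0.51 and 0.49), Psmc1 (0.23 and 0.29) and Psmd2 (0.16 and 0.12) also had 1 sign. Those of Psmb3, a beta subunit with no proteolytic site, stood on either side of 0 at -0.03 and 0.04.

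Around Psma5 on chromosome 3, Cyb561d1, Atxn7l2, Sypl2 and Mybphl had log2 fold changes between -0.07 and 0.05 and were not called. The next gene along, the sorting receptor Sort1, was lower. Its log2 value was 10.08 and 9.79 on the LPS arrays, against 10.77 and 10.56 on the PBS arrays (log2 fold change -0.73, limma adjusted p = 0.0206). Psrc1, the third gene along, was higher, with 9.58 and 9.64 on the LPS arrays, against 9.10 and 8.95 on the PBS arrays (0.58, adjusted p = 0.0168). Neither was called without LPS replicate 2 (adjusted p = 0.0548 for Sort1 and 0.0643 for Psrc1) or with all probe sets fitted together (0.117 and 0.0857).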
